A study of Arabidopsis thaliana with 8 samples.

Results

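The genes described here are those whose transcripts were abundant and whose signal changed least over the whole experiment, in both genotypes. They were selected on the measured values themselves, as the probe sets (groups of short oligonucleotides that read out 1 transcript on an Affymetrix ATH1 array) with a mean signal over 8 arrays of at least 1500 and a highest signal less than 1.2 times the lowest, leaving out control probe sets and genes of the plastid and mitochondrial genomes. Of 22810 probe sets, 1250 passed the signal minimum and 106 of these, 8.48%, also passed the limit on range. Leaving out an array cannot widen the range of a probe set, and the count rose in every such run, to between 121 and 184. It rose most without *fhy3-4* at 40 h, to 184 (14.9%), and without wild type at 32 h, to 177 (14.1%). The gene tables paired 42 of the 106 with 1 nuclear gene and 11 with several genes, while 53 had no gene name. Because all 8 arrays entered the selection, the differences between genotypes and times given for these genes are descriptions and were not tested.

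The study compared *fhy3-4*, a mutant of the transcription factor FHY3, which acts in phytochrome signalling and in light input to the clock, with its wild type, No-0. Each sample pooled about 100 whole seedlings grown on sucrose-containing medium for 7 days in cycles of 12 h white light and 12 h dark and then moved to constant red light (660 nm, 120 micromol m-2 s-1). The 4 *fhy3-4* samples and the 4 wild type samples were harvested after 24, 32, 40 or 48 h of red light, with 1 array per genotype and time and therefore no replicates. *fhy3-4* is 1 mutant allele, and its effect was not separated from those of other differences between the lines.

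A growing seedling transcribes many genes for the machinery that every cell uses, among them those for the proteins of the cytosolic ribosome. In *Arabidopsis*, each ribosomal protein is encoded by a small family of nearly identical genes, whose products join ribosomal RNA in a small subunit, which decodes the message, and a large subunit, which forms the peptide bond. Genes of this kind, together with those of glycolysis, the cytoskeleton and ubiquitin conjugation, are the ones commonly taken as references against which the expression of other genes is measured. In leaves, nuclear genes of the photosystems are also abundant, but many of them follow light and the circadian clock.

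The mean signal of the whole array lay between 402 and 439 in the 8 samples, and the median of the probe sets that were neither controls nor organelle genes between 132 and 145. The green tissue markers paired with 1 gene were high on every array, with 8471 to 9957 for *LHCB4.1*, 8889 to 10871 for *RCA* and 3587 to 6158 for *PSAN*. The root hair genes *EXPA7* and *EXPA18* gave 18.4 to 154 and 98.6 to 612. The other green and root markers and the seed markers were not analysed here, because no probe set was paired with them alone. *FHY3* itself likewise had no probe set of its own in the gene tables, so the genotype labels were not checked on the mutated gene.

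Over the 106 probe sets the ratio of highest to lowest signal ranged between 1.04 and 1.1994, with a median of 1.16, against a median of 1.49 in the other 1144 abundant probe sets. Only 8 of the 106 had a ratio below 1.1 and 39 had a highest signal less than 15% above the lowest, so most lay close to the limit of the selection. The coefficient of variation over the 8 arrays was 1.55% to 7.25%, with a median of 5.21%. Within a genotype, the 4 times differed by a median factor of 1.11 in *fhy3-4* and 1.11 in wild type, against 1.27 in *fhy3-4* and 1.28 in wild type for the other abundant probe sets. The limit over 8 arrays also bounds any 4 of them, so these contrasts with the other abundant probe sets follow from the selection. The share of probe sets that stayed within the limit moved with signal level, being 0.132% of those with a mean below 100, 3.38% of those between 100 and 500, 4.72% of those between 500 and 1500, and then 3.86% between 1500 and 2500, 9.8% between 2500 and 5000 and 21.9% at 5000 or more. Signals of different probe sets also depend on their oligonucleotides, so these levels do not rank the transcripts, and the part of signal level in the constancy of the genes was not tested.

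**Figure D1:**
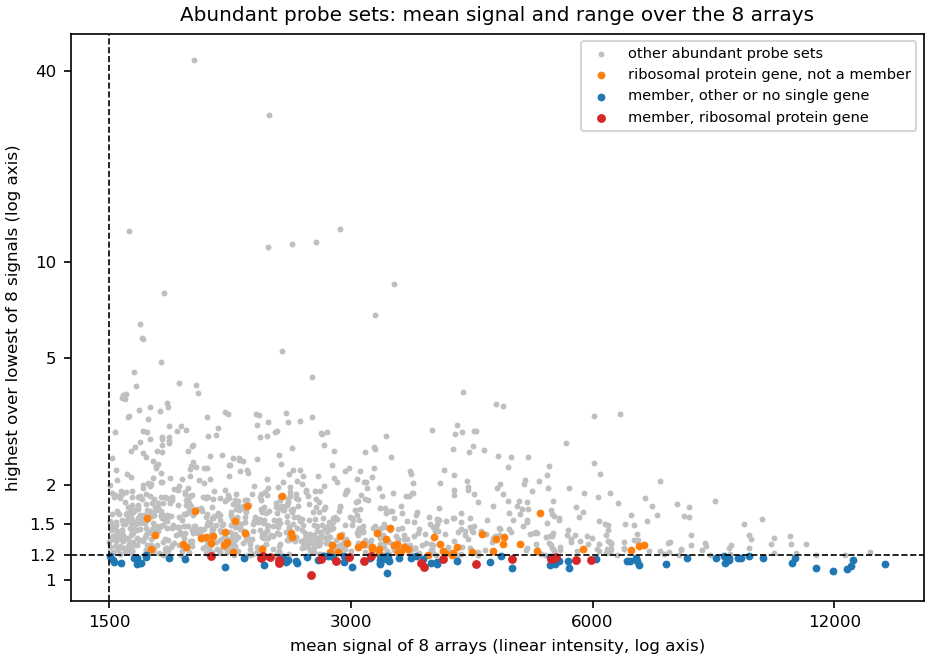
Mean signal over the 8 arrays (x axis, linear intensity on a log axis) and highest over lowest of the 8 signals (y axis, log axis) of the 1250 abundant probe sets, one point each, with dashed lines at the limits of 1500 and 1.2. The 106 selected probe sets lie below the horizontal line, with ribosomal protein genes in red among them and in orange above it.

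Genes of cytosolic ribosomal proteins made up 22 of the 42 named genes, or 52.4%, against 62 of 434, or 14.3%, among the other named abundant probe sets and 1% of all probe sets paired with 1 nuclear gene. All 11 probe sets that were paired with several genes matched only genes of cytosolic ribosomal proteins, against 13 of 41 such probe sets among the other abundant ones, and counting them in gives 33 of the 53 probe sets with any gene. Some of the 11 matched the same genes, so they do not count distinct genes. Seen from the list, 134 of the 236 ribosomal protein genes had a probe set of their own, 84 of these were abundant, and 22, or 26.2% of the 84, stayed within the limit, against 20 of 392, or 5.1%, of the other named abundant genes. At mean signals of 1500 to 2500, 6 of 25 ribosomal genes stayed within it, against 7 of 242 others. Between 2500 and 5000 these were 11 of 48 against 8 of 115, and at 5000 or more 5 of 11 against 5 of 35. The median ratio of the 84 was 1.26, with a range of 1.04 to 1.84, against a median of 1.53 for the 392. Both subunits contributed, with 14 of 54 abundant genes of the large subunit and 8 of 30 of the small subunit. The list was drawn up after the selected genes had been seen, so its counts are descriptions. They belong to the signals as deposited and depend on how the arrays are scaled to each other: after quantile normalization only 3 of 28 selected named genes, or 10.7%, were ribosomal.

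**Figure D2:**
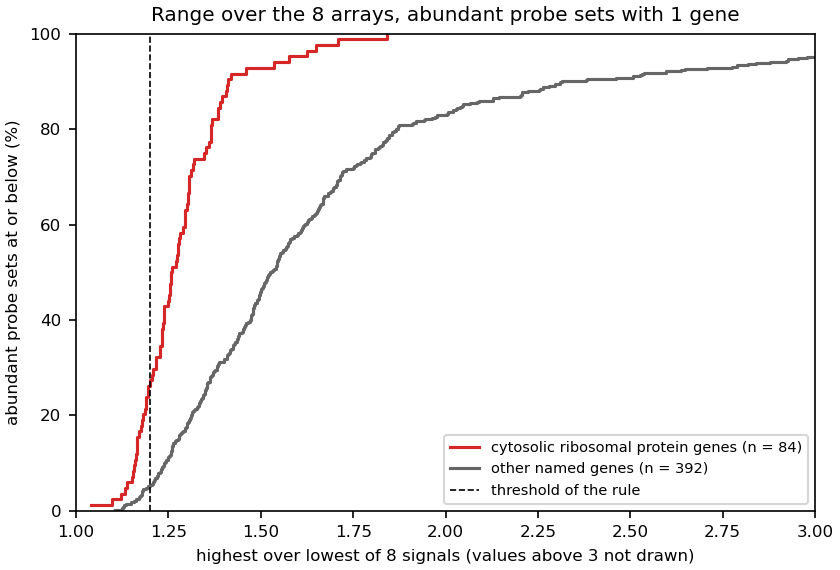
Cumulative share (y axis, %) of abundant probe sets paired with 1 gene whose ratio of highest to lowest signal over the 8 arrays is at or below the value on the x axis, for 84 ribosomal protein genes (red) and 392 other named genes (grey). The dashed line marks the limit of 1.2, below which lie 26.2% of the ribosomal protein genes and 5.1% of the others.

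The named gene with the smallest range was AT3G16080, which encodes a large subunit protein of family L37. The gene tables give no products for genes listed by locus code, so such roles are general knowledge of the gene families. In the order 24, 32, 40 and 48 h, which is used throughout, its signal was 2639, 2655, 2636 and 2728 in *fhy3-4*, against 2697, 2724, 2624 and 2697 in wild type. The 8 values overlap between the genotypes and give a ratio of 1.04, the smallest among all 106 probe sets. Its abundant relative AT1G52300 gave 7241, 6961, 6666 and 6849 in *fhy3-4*, against 6747, 5797, 6769.6 and 6568 in wild type, a ratio of 1.2492 in which wild type at 32 h was the lowest array. Another gene of the family, AT1G15250, fell below the signal minimum with a mean of 324 and had a ratio of 1.79.

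For the small subunit, AT2G36160, of family S14, stood at 3856, 3768, 3610.1 and 3656 in *fhy3-4*, against 3882, 3589, 3707 and 3535 in wild type, with a ratio of 1.0982. Its relative AT3G11510 had 3481, 2917, 3426 and 3231 in *fhy3-4*, against 3064, 3027, 3173 and 3132 in wild type, so that the highest and the lowest signal (ratio 1.19) were both *fhy3-4* values taken 8 h apart. The remaining S14 gene, AT3G52580, was abundant at a ratio of 1.27 and was not selected. Family S24 was represented by both of its genes: AT5G28060 had 2378, 2322, 2359.8 and 2432 in *fhy3-4*, against 2528, 2374, 2515 and 2126 in wild type, and AT3G04920 had 2417, 2414, 2384 and 2657 in *fhy3-4*, against 2414, 2406, 2562 and 2284 in wild type. In both, wild type at 48 h was the lowest of the 8 arrays.

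Family L17 of the large subunit was also represented by both of its genes. AT1G67430 had 6173, 5912, 6269.7 and 5987 in *fhy3-4*, against 6015, 6134, 5844 and 5414 in wild type, and AT1G27400 had 2522, 2244, 2222 and 2434 in *fhy3-4*, against 2380.1, 2363, 2247 and 2140.5 in wild type. Again the lowest value of each was that of wild type at 48 h, at ratios of 1.16 and 1.18. Among the other large subunit genes, AT2G34480 (family L18a) had 5872, 5705, 5218 and 5650.2 in *fhy3-4*, against 4987, 5565, 5222 and 4947 in wild type. AT3G62870 (family L7a) had 5645, 5629.7, 5199.6 and 5504 in *fhy3-4*, against 5292, 5175, 5309 and 4822 in wild type. These 2 genes had the largest differences between genotype means among the ribosomal genes selected, 0.12 and 0.09 on the log2 scale, with overlapping values.

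AT4G27090 (family L14) departed from that pattern, with 5489, 6015, 5676 and 5866 in *fhy3-4*, against 5830.4, 5181, 5919.7 and 5781 in wild type, its lowest array being wild type at 32 h. AT3G49910 (L26) had 4974, 4392, 5113 and 5060.2 in *fhy3-4*, against 5112, 4441, 4406 and 4644 in wild type, with its lowest value in *fhy3-4* at 32 h. AT2G01250 (L7) and AT4G16720 (L15) were flatter, at ratios of 1.12 and 1.13. The signals of AT2G01250 were 4500.5, 4420.2, 4127 and 4446 in *fhy3-4*, against 4529.9, 4191, 4155 and 4034 in wild type. Those of AT4G16720 were 3877, 3768, 3620.4 and 3741 in *fhy3-4*, against 3699, 3699.7, 3501 and 3426 in wild type. In the small subunit, AT5G27700 (S21) ranged between 5050.4 and 5945 in *fhy3-4* and between 5064 and 5715 in wild type, AT3G04840 (S3a) between 3589 and 4148 in *fhy3-4* and between 3561 and 4013 in wild type, and AT3G60770 (S13) and AT1G48830 (S7) had ratios of 1.1545 and 1.17. The remaining ribosomal genes, AT3G09500 (L35), AT4G15000 (L27), AT1G18540 (L6), AT4G26230 (L31) and AT5G23900 (L13), had ratios of 1.14 to 1.19.

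The 22 ribosomal genes belonged to 19 of the 80 families listed, and 3 of the 19 families had 2 genes among them. Another 24 genes of these families were measured by a probe set of their own, of which 11 were below the signal minimum. The other 13 were abundant and had ratios of 1.23 to 1.41, with a median of 1.28, 8 of them below 1.3. Near-identical relatives can share oligonucleotides, so the assignment of signal within a family is uncertain. Probe sets of the type that is designed against several similar transcripts made up 13 of the 106 probe sets (12.3%), and 75 of the other 1144 (6.56%).

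The arrays did not contribute equally to the small differences that remained. The highest of the 8 signals was that of *fhy3-4* at 24, 32, 40 and 48 h for 21, 8, 20 and 17 of the 106 probe sets, against 14, 14, 5 and 7 for wild type at the same times. The lowest was that of *fhy3-4* for 8, 11, 14 and 15 probe sets, against 5, 18, 9 and 26 for wild type. Wild type at 48 h thus held the lowest value most often, for 26 of the 106, where 7.44% of all abundant probe sets had their lowest value on that array. Such a share was not computed for the other arrays or for the highest values. Whether those counts differ from the abundant probe sets in general therefore cannot be said. The limit on range keeps the deviations of the 106 from their own means small. Their median log2 deviation was 0.03, -0.01, 0.00 and 0.02 in *fhy3-4*, against 0.02, -0.02, -0.00 and -0.03 in wild type. In the other abundant probe sets it was -0.05, -0.03, 0.10 and -0.06 in *fhy3-4*, against 0.00, -0.01, 0.02 and -0.00 in wild type, the largest value being that of *fhy3-4* at 40 h, the array with the highest mean signal (439).

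Among the named genes, those with their lowest value in wild type at 48 h were nearly all ribosomal. Of the 22, 14 were lowest on that array, against 1 of the 20 other named genes selected, and the 14 became 9 after mean scaling and 6 after quantile normalization and stayed 14 after median scaling. Their median deviation was 0.07, -0.00, -0.02 and 0.04 in *fhy3-4*, against 0.02, 0.00, -0.03 and -0.10 in wild type, while that of the 20 others stayed between -0.04 and 0.02 in *fhy3-4* and between -0.01 and 0.03 in wild type. The 62 abundant ribosomal genes that were not selected gave 0.12, 0.03, -0.03 and 0.08 in *fhy3-4*, against 0.06, -0.15, -0.03 and -0.09 in wild type. Of these 62, 14 were lowest in wild type at 48 h, and their lowest median was in wild type at 32 h. The limit on range used these same values, so the lowest array of the selected genes may depend in part on the selection. The values of both ribosomal groups were thus above their means in *fhy3-4* at 24 and 48 h and below them in wild type at 48 h.

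**Figure D3:**
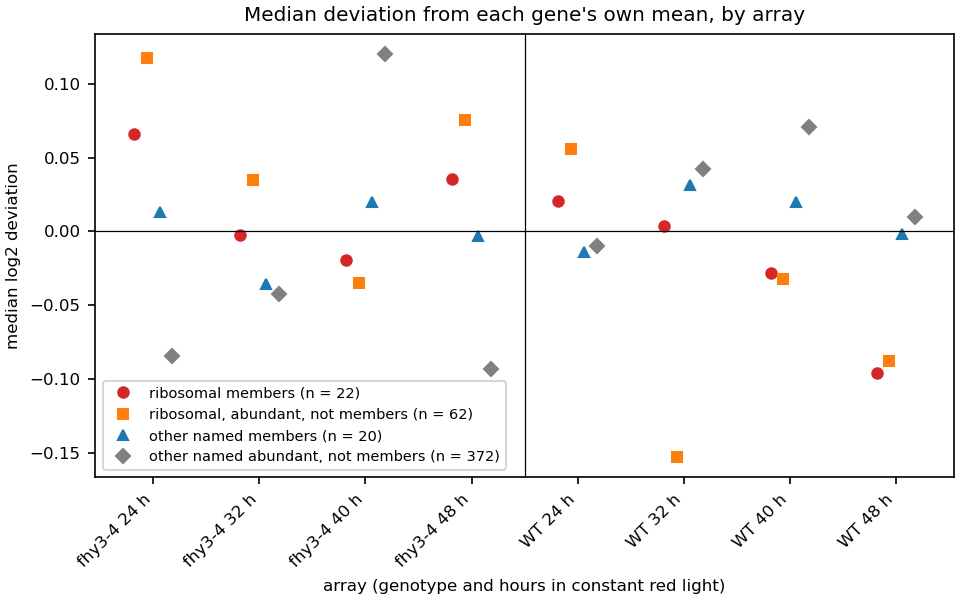
Median log2 deviation of each gene from its own mean over the 8 arrays (y axis) on each array (x axis, *fhy3-4* left, wild type right), for 22 ribosomal genes selected, 62 abundant ribosomal genes not selected, 20 other named genes selected and 372 other named abundant genes not selected. Both ribosomal groups lie near -0.10 and -0.09 in wild type at 48 h, where the other groups lie near 0. The ribosomal genes not selected lie lowest in wild type at 32 h, near -0.15.

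At 48 h the signal was higher in *fhy3-4* than in wild type for 21 of the 22 selected ribosomal genes, with a median difference of 0.14 on the log2 scale, and for 61 of the 62 others, with a median of 0.15, whereas 41.8% of all abundant probe sets were higher in *fhy3-4* at that time. This is the time whose wild type array was most often the lowest for the 22. Their median deviations in *fhy3-4* and wild type were closer at the other times. They were 0.07 and 0.02 at 24 h, -0.00 and 0.00 at 32 h, and -0.02 and -0.03 at 40 h. For the 62 others they were 0.12 and 0.06 at 24 h, 0.03 and -0.15 at 32 h, and -0.03 and -0.03 at 40 h. In wild type, 19 of the 22 and 59 of the 62 were lower at 48 h than at 24 h, by medians of -0.13 and -0.13, where 47.2% of abundant probe sets were lower. A fall between these times was not particular to wild type. In *fhy3-4* the median deviation of the 22 went from 0.07 at 24 h to 0.04 at 48 h. That of the 62 went from 0.12 to 0.08. Among all the probe sets selected, 66 were lower at 48 h than at 24 h in *fhy3-4* and 69 in wild type. At 48 h, 21 of the 22 were higher in *fhy3-4* after mean scaling, 21 after median scaling and 22 after quantile normalization, with medians of 0.18, 0.16 and 0.26. The mean over the 4 times behaved differently: 18 of the 22 were higher in *fhy3-4*, where 50.6% of abundant probe sets were, with a median of 0.05, and 18 after mean scaling, 9 after median scaling and 20 after quantile normalization, with medians of 0.04, -0.01 and 0.07. Of the 62 others, 59 were higher in *fhy3-4* as deposited, and 57, 42 and 59 under these scalings. Each comparison at 1 time sets single arrays against each other, the mean over the times sets 4 arrays against 4 without replicates, and the genes of an array share its RNA, so that an array effect and an effect of genotype or time cannot be told apart. In whole seedlings, moreover, fewer cells of a type and less RNA per cell cannot be told apart.

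**Figure D4:**
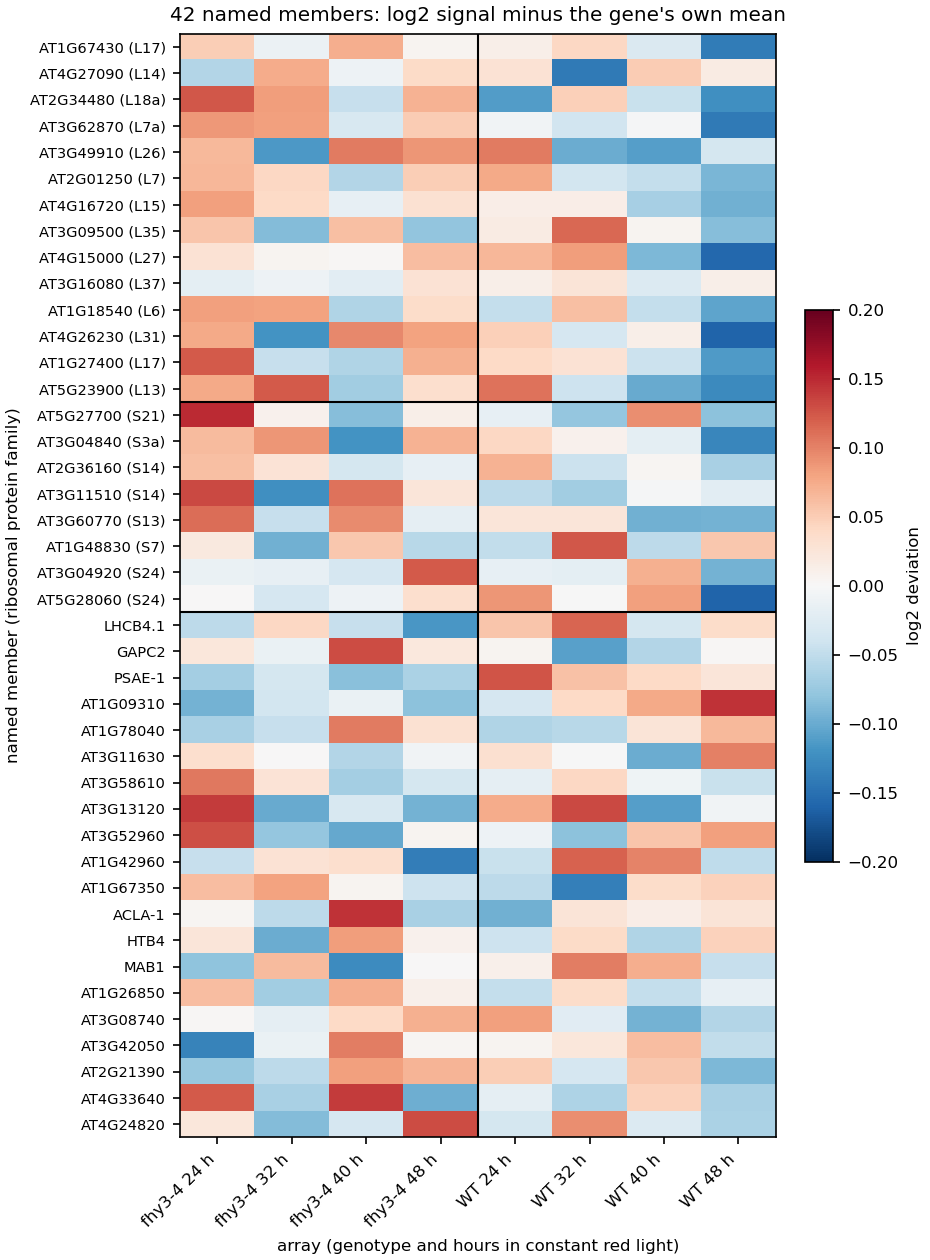
Log2 signal minus the gene's own mean (colour) for the 42 named genes (rows, with the ribosomal family in brackets) on the 8 arrays (columns, *fhy3-4* left, wild type right). Horizontal lines separate 14 large subunit genes, 8 small subunit genes and 20 other genes, and the last column is lowest for 14 of the 22 ribosomal genes.

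Across all 106 probe sets, 67 had a higher mean log2 signal in *fhy3-4* and 39 a lower one, with a median difference of 0.02 and a range of -0.15 to 0.14. Of all abundant probe sets, 50.6% were higher in *fhy3-4*. The median difference of the 106 became 0.01 after mean scaling, -0.04 after median scaling and 0.04 after quantile normalization. Its sign thus depended on the scaling. The 4 arrays of one genotype lay entirely above those of the other in few cases: 2 of the 106 were higher in *fhy3-4* on every array, where 5.52% of abundant probe sets were, and 6 were lower, where 8.8% were. The only named gene among these 8 was *PSAE-1*, a subunit of photosystem I on its stromal side. Its signal was 8446, 8646, 8361 and 8479.9 in *fhy3-4*, against 9665, 9219, 9105 and 9003 in wild type, and the difference of the means was -0.12 on the log2 scale. Its values separated the genotypes also after mean and median scaling and overlapped after quantile normalization.

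*LHCB4.1*, an antenna protein of photosystem II, was the other photosynthesis gene selected, with 8858, 9450.4, 8891 and 8471 in *fhy3-4*, against 9543, 9957, 8958 and 9421 in wild type. It was lower in *fhy3-4* at each of the 4 times, but the values of the genotypes overlap. Of the 60 photosynthesis genes listed, 11 had a probe set of their own and 10 of these were abundant. The 2 selected were 20% of the 10, where 8.48% of all abundant probe sets were selected. The ratios of those not selected were 1.21 for *PSBW*, 1.22 for *RCA*, 1.24 for *ATPC1*, 1.33 for *PSBY*, 1.35 for *LHCB4.2*, 1.48 for *PRK*, 1.55 for *SBPASE* and 1.72 for *PSAN*. The antenna relative *LHCB4.2* had 5535, 5754, 4995 and 4853 in *fhy3-4*, against 6268, 6176, 4909 and 6563 in wild type, where the value at 40 h stood below the other three.

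Several of the other named genes encode enzymes of metabolism, which were not counted against a list. *GAPC2*, a cytosolic glyceraldehyde-3-phosphate dehydrogenase of glycolysis, had 9241, 9014, 9955 and 9228 in *fhy3-4*, against 9129, 8443, 8737 and 9113 in wild type, with the highest value in *fhy3-4* at 40 h. *ACLA-1*, a subunit of the ATP citrate lyase that makes cytosolic acetyl-CoA, had 2646, 2546, 2916 and 2522 in *fhy3-4*, against 2468, 2686, 2664 and 2688 in wild type, again highest in *fhy3-4* at 40 h. *MAB1*, the E1 beta subunit of mitochondrial pyruvate dehydrogenase, was instead lowest in *fhy3-4* at 40 h, with 2324, 2567, 2251 and 2457 in *fhy3-4*, against 2474, 2637, 2583 and 2379 in wild type. AT3G58610, the ketol-acid reductoisomerase of branched-chain amino acid synthesis, had 4129, 3911, 3659 and 3743 in *fhy3-4*, against 3788, 3948, 3814 and 3719 in wild type, at a ratio of 1.13.

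Both peroxiredoxins selected are plastid enzymes that reduce peroxides. The 2-Cys peroxiredoxin AT3G11630 had 4163, 4070.3, 3906 and 4048 in *fhy3-4*, against 4158, 4067, 3799 and 4362 in wild type, at a ratio of 1.1482. The type II peroxiredoxin AT3G52960 had 3644, 3161, 3106 and 3347 in *fhy3-4*, against 3311, 3150.1, 3464 and 3528 in wild type, at a ratio of 1.17. Plastid translation was represented by AT3G13120, a plastid ribosomal protein of family S10 (ratio 1.19), and AT3G08740, a protein of the elongation factor P family (ratio 1.13). The signal of AT3G08740 was 1646, 1622, 1689 and 1727 in *fhy3-4*, against 1739, 1617, 1538 and 1577 in wild type.

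The histone gene *HTB4*, which encodes a histone H2B, had 2615, 2401, 2724 and 2585 in *fhy3-4*, against 2498, 2639, 2466 and 2653 in wild type, at a ratio of 1.13 and with no order between the genotypes. AT2G21390, the alpha subunit of the coatomer that coats vesicles of the Golgi, had 1539, 1565, 1716 and 1701 in *fhy3-4*, against 1678, 1586, 1684 and 1524 in wild type, also at 1.13. AT3G42050, subunit H of the vacuolar proton pump, and AT4G24820, a lid subunit of the proteasome, had ratios of 1.18 and 1.16. The other 6 named genes, AT1G09310, AT1G78040, AT1G42960, AT1G67350, AT1G26850 and AT4G33640, are given no role here. AT1G26850 had the smallest range of them, with 2178, 1987, 2195 and 2102 in *fhy3-4*, against 2019, 2140.1, 2019.7 and 2063 in wild type (ratio 1.1043). AT1G78040 had 7084, 7173, 7956 and 7566 in *fhy3-4*, against 7107, 7124, 7539 and 7748 in wild type (ratio 1.12), higher at 40 and 48 h than at 24 and 32 h in both genotypes. AT1G09310 had 7348, 7649.7, 7775 and 7408 in *fhy3-4*, against 7664, 8062, 8265 and 8674 in wild type, where each value was higher than the one before it.

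At the limit itself the selection separated nearly equal values. The named genes just inside were AT5G23900 (1.1897), AT3G13120 (1.1898), AT3G11510 (1.1935), AT4G26230 (1.1937) and AT1G42960 (1.195). Those just outside were AT5G27850 (1.2002), AT5G36230 (1.2004), AT2G43030 (1.2042), AT5G02870 (1.2042) and AT4G21110 (1.2071). Among the genes just outside, AT5G27850 and AT5G02870 encode the large subunit ribosomal proteins L18 and L4. The first of them had 4326, 3970.3, 4154 and 4413 in *fhy3-4*, against 4102, 3677, 3739 and 3715 in wild type.

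A gene can stay within a narrow range and still follow a daily wave. The criterion used in the study for rhythmic genes, a correlation with the best of 24 sine waves of 24 h period at a p threshold of 0.01, without its further requirement of a minimum amplitude, was met by 15 of the 106 probe sets in *fhy3-4* and by 20 in wild type, with 4 in both. Of all abundant probe sets, 23.9% met it in *fhy3-4* and 19.6% in wild type. With 4 values per genotype and the best phase chosen for each gene, the criterion describes the shape of 4 points and does not establish a rhythm.

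Of 34 listed genes in common use as references for expression measurements, 11 had a probe set of their own and only 3 of these passed the signal minimum. Of the 3, *GAPC2* was selected, at a ratio of 1.18, where 8.48% of all abundant probe sets were. The abundant tubulin genes *TUB6* and *TUB9* had ratios of 1.85 and 1.35. *TUB6* gave 1441, 1188, 1199 and 1484 in *fhy3-4*, against 1469, 2203, 1691 and 1539 in wild type, its highest value being that of wild type at 32 h. AT5G46630, a subunit of the AP2 adaptor of clathrin-coated vesicles, stayed within the limit on range (1.17) but had a mean signal of only 702, with 686, 717, 742 and 657 in *fhy3-4*, against 734, 757, 647 and 673 in wild type. The ratios of the others were 1.22 for the F-box gene AT5G15710, 1.29 for the ubiquitin-conjugating enzyme gene *PEX4*, 1.32 for AT4G33380, 1.33 for AT4G26410, 1.39 for AT2G32170, 1.41 for the TIP41-like gene AT4G34270 and 1.59 for AT2G28390. The means of these 7 were 224 to 1085, below the signal minimum.

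The selected genes were spread over the nuclear genome. Chromosomes 1, 2, 3, 4 and 5 held 11, 4, 14, 7 and 6 of the 42 named genes, where they held 107, 75, 108, 80 and 106 of the 476 named abundant genes. None of the 42 genes had a second probe set paired with it alone. The 53 probe sets without a gene name had ratios of 1.07 to 1.1994, so the description by function covers less than the whole of the selection.

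How far a gene counts as constant depended on the scaling of the arrays. When each array was divided by its own mean, 105 probe sets passed, of which 68 were among the 106. With the median in place of the mean 93 passed, 56 of them shared, and after quantile normalization 99 passed, 40 of them shared. Of the 42 named genes, 26, 22 and 12 stayed below 1.2. Quantile normalization moved the median of the abundant probe sets by -0.13 on the log2 scale in *fhy3-4* at 40 h and by -0.03 to 0.0847 on the other arrays. Under it the L37 gene AT3G16080 had a ratio of 1.29, against 1.12 after mean scaling, 1.12 after median scaling and 1.04 as deposited.

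Only 19 probe sets passed the selection under all 4 scalings, of which 8 had 1 named gene, 3 several genes and 8 no name. The 8 named genes were *GAPC2*, *ACLA-1*, the S14 gene AT2G36160, the coatomer gene AT2G21390, the proton pump gene AT3G42050, the elongation factor P gene AT3G08740, AT1G78040 and AT1G26850. For *GAPC2* the ratio was 1.18 as deposited, 1.12 after mean scaling, 1.12 after median scaling and 1.11 after quantile normalization. For AT2G36160 it was 1.0982 as deposited, 1.16 after mean scaling, 1.13 after median scaling and 1.19 after quantile normalization. All 3 of the probe sets with several genes matched ribosomal protein genes.

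**Figure D5:**
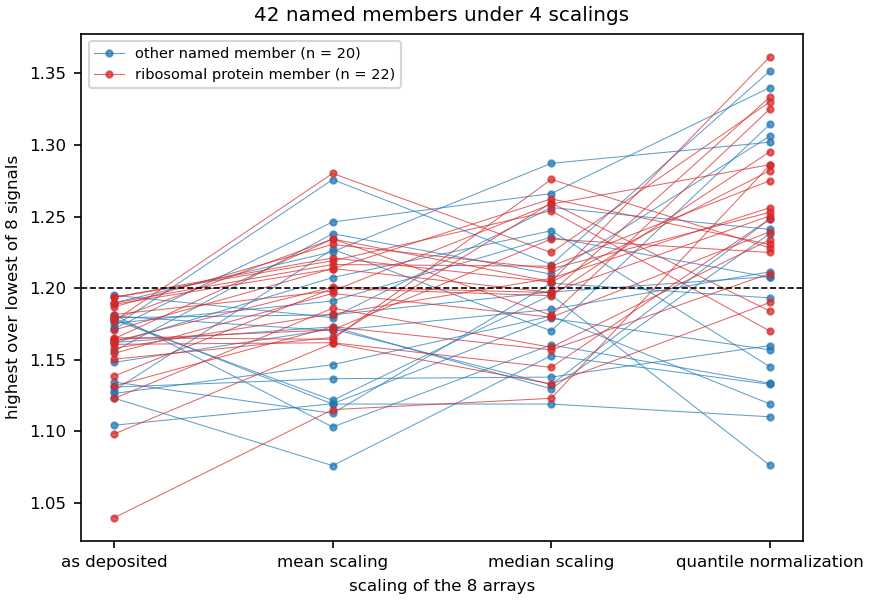
Highest over lowest of the 8 signals (y axis) of the 42 named genes under 4 scalings of the arrays (x axis), 1 line per gene, ribosomal genes in red and others in blue, with the limit of 1.2 as a dashed line. All 42 lie below the line as deposited, and 26, 22 and 12 of them after mean scaling, median scaling and quantile normalization.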

How the data were processed

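Total RNA of 8 pools of whole seedlings was hybridised to 1-colour ATH1 arrays. The deposited values are linear probe set intensities, which the authors had scaled between arrays before deposit, with MAS5 named without a version in the submitters' processing notes, while the methods of the study name another tool for a joint normalization with arrays not used here. They were used as deposited, with no log, background step or filter, and detection calls were not used. Ratios are highest over lowest of 8 linear signals, and differences are log2 of *fhy3-4* over wild type. Since each genotype had 1 array a time and the selection used all arrays, no test was run, and the number of arrays limits the precision.

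Probe sets were named through the platform annotation and the RefSeq gene table: 13367 had 1 nuclear gene, 483 several genes, 8730 none, 54 a symbol without a match in the gene table, 112 an organelle gene and 64 were controls. Of the organelle probe sets, 4 otherwise met the limits. The selected genes and the gene lists were chosen with earlier results of these data known. The lists of ribosomal, photosynthesis and reference genes are locus codes written from general knowledge of the families after the selected genes had been seen, because the tables give no products, and they replaced the lists that had been planned. Named genes were the 10 with the highest mean, the 10 with the lowest ratio, 5 on each side of the limit, up to 8 per list and all reference genes; other selected genes were named after their values were seen. Promoter motifs were not analysed here. The selection and the sine wave correlation were checked on simulated data. Alternatives were other limits, mean scaling, median scaling and quantile normalization, other sets of probe sets, each array left out, and each genotype alone; how the ribosomal genes moved under the scalings was added after seeing the data. Python 3.11.15, pandas 2.3.3, scipy 1.17.1, R 4.3.3 and limma 3.58.1 were used.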

Additional observations from a re-analysis of the deposited data

How the results depend on the processing

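The number of probe sets selected was 106, and 39, 225 and 334 at a limit of 15%, 25% and 30% above the lowest signal in place of 20%, which are 3.12%, 18% and 26.7% of the abundant probe sets. It was 453 (36.3%) on the 4 *fhy3-4* arrays alone, 443 (35.4%) on the 4 wild type arrays alone and 42 for probe sets with 1 nuclear gene only. At a mean of at least 2000 the share was 10.8%. Leaving out 1 array gave 121 to 184 probe sets, or 9.57% to 14.9%, with the most without *fhy3-4* at 40 h (184) and without wild type at 32 h (177). A ratio over fewer arrays cannot be larger. These rises, and those for 1 genotype alone, thus follow in part from the rule. The ribosomal share of the named genes was 37.5% to 53.4% when 1 array was left out, the lowest without *fhy3-4* at 40 h. It was 32.8% at a mean of at least 1000, 31.01% on the wild type arrays alone and 10.7% after quantile normalization. It was 38.2% after mean scaling, 39.2% on the *fhy3-4* arrays alone and 41.7% at a limit of 15%. Under the other alternatives run it lay between 43.1% and 59.5%, against 52.4% in the selection itself. The median ratio of the 106 was 1.1976 after median scaling and 1.2304 after quantile normalization, against 1.1627 as deposited. The number of ribosomal genes lowest in wild type at 48 h was 9 after mean scaling, 14 after median scaling and 6 after quantile normalization, against 14 as deposited, and the median difference between genotypes over the 106 was 0.01, -0.04 and 0.04 under these scalings, against 0.02 as deposited. The causes of these shifts were not tested.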
